A study of Mus musculus with 9 samples.

Results

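The 2-oxoglutarate dioxygenases described here are 38 enzymes, of the 26858 genes in the table, that act on chromatin, on nucleic acids, on proteins or, for 1 of them, on a lipid. They were chosen by gene name, with earlier results of these data known. They fall into 14 histone demethylases, 11 DNA and RNA dioxygenases, 12 protein hydroxylases and 1 small-molecule hydroxylase. Transcripts were measured by RNA sequencing in SIX2 progenitors, the cells of the cap mesenchyme (CM) that give rise to nephrons, isolated by fluorescence-activated cell sorting from mouse kidneys at age E18.5. Mutant mice (*Six2-Qpc*−/−, n = 5 libraries) carried a bacterial artificial chromosome transgene in which the *Six2* promoter drives Cre fused to eGFP, and both of their floxed alleles of *Uqcrq*, which encodes the QPC subunit of mitochondrial (mt) complex III, were inactivated in the CM. Control mice (*Six2-Qpc*+/−, n = 4 libraries) were of the same line and heterozygous, so both genotypes carried the Cre transgene and both sets of cells had been sorted on its eGFP. The comparison asks how these transcripts differed in progenitors that lack a complex III subunit.

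Enzymes of this superfamily use molecular oxygen and 2-oxoglutarate, an intermediate of the tricarboxylic acid (TCA) cycle, to hydroxylate their substrates, and release succinate and carbon dioxide. Hydroxylation of a methyl group leads to its loss, which is how the JmjC enzymes remove methyl marks from histones and the ALKBH enzymes from nucleic acids, while the TET enzymes oxidise 5-methylcytosine in DNA. Hydroxylation of collagen prolines makes the triple helix stable, hydroxylation of its lysines prepares cross-links, and hydroxylation of hypoxia-inducible factor (HIF) lowers its stability or its activity. Succinate and fumarate compete with 2-oxoglutarate, which ties these enzymes to the state of the mt respiratory chain. Only transcripts were measured in these data, not enzyme activity, metabolites or methylation.

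Libraries are named here by genotype and by the replicate number of the labels, and levels are given as counts per 1000000 counts of the normalized library (CPM). *Uqcrq* had 107, 76.8, 91.1 and 101 CPM in control 71, 72, 73 and 76, and 16.5, 28.2, 22.6, 20.3 and 19.0 CPM in mutant 74, 75, 77, 78 and 79. It fell by 2.14 on the log2 scale (SE 0.16, edgeR adjusted p = 2.09e-05), and no mutant library reached the control range. Library totals ranged from 21040536 to 23986458 counts. No marker of the CM passed the test (0 of 12), and the summed level of these 12 genes was 2429.8 to 2926 CPM in control and 2439 to 2869 CPM in mutant libraries. In contrast, 8 of 12 stromal markers rose, their summed level being 213 to 333 CPM in control and 451 to 1052 CPM in mutant libraries, and so did 2 of 8 myeloid markers, from 2.64 to 15 CPM in control to 12.5 to 148 CPM in mutant libraries. Of 9 committed nephron markers, 4 fell and none rose. Among all 14990 genes tested, 14.8% passed the test. In bulk RNA, fewer cells of a type and less RNA per cell cannot be told apart, and the part of these other cells in the values below was not tested unless a value is given. Transcripts of the Y chromosome were present in control 72, control 73 and mutant 79 and near 0 in the other 6 libraries, and values without these 3 libraries are given for the enzymes that were called; the calls of other genes named below were not examined without them.

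All 38 enzymes were expressed well enough to be tested, with between 91 reads (*Ogfod1*) and 7333 reads (*P4ha1*) in a library. Of these, 4 passed the test (10.5%), compared with 14.8% of the 14990 genes tested. *Hif1an* and *Alkbh1* rose and *Plod1* and *P4ha3* fell, while 7.82% of all genes were called higher and 7.02% lower. The libraries of the genotypes did not overlap for 5 enzymes (13.2%), against 15.2% of all genes, and an unadjusted p under 0.05 was found for 12 (31.6%), against 31.4% of all genes. As a group the enzymes were therefore called no more often than the genes at large, and their median log2 fold change was -0.06, compared with -0.01 for all genes. The classes differed in their medians, which were -0.04 for histone demethylases, -0.01 for DNA and RNA dioxygenases and -0.35 for protein hydroxylases.

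**Figure D1:**
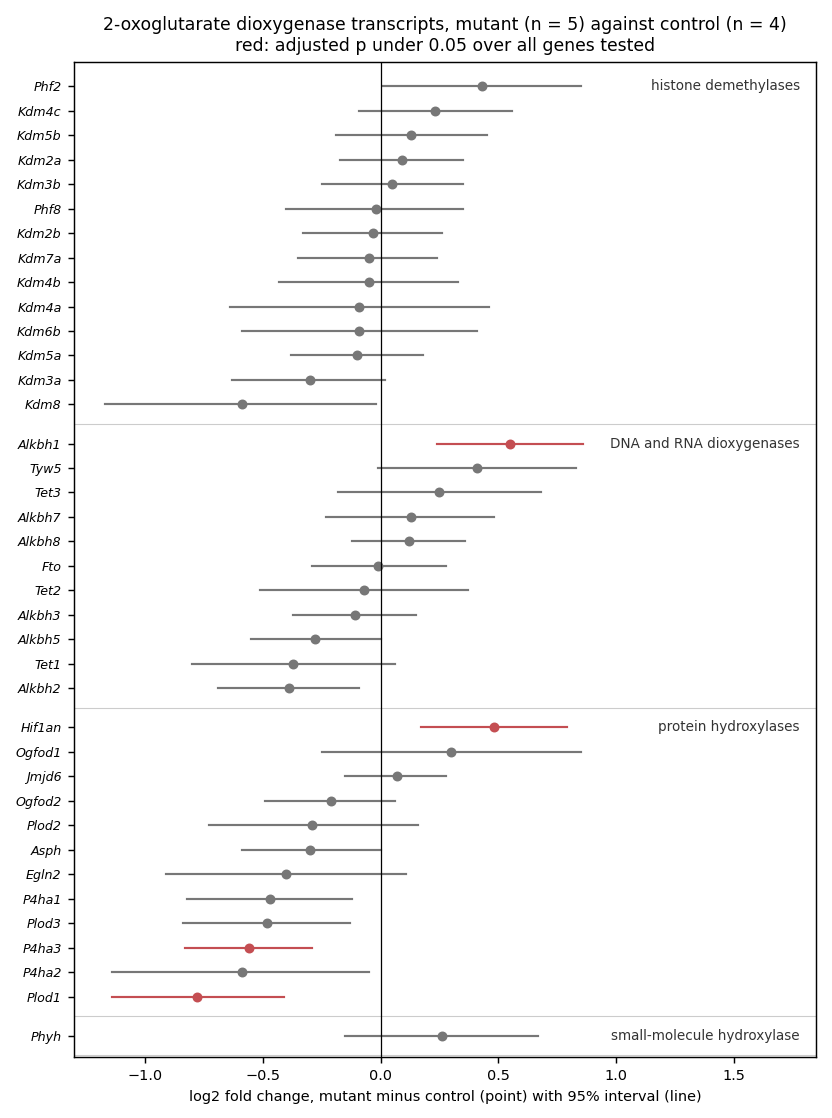
Log2 fold change of each of the 38 enzymes, mutant (n = 5) minus control (n = 4), with its 95% interval from the edgeR quasi-likelihood fit, ordered by size within each class. Intervals of the 4 enzymes with an adjusted p under 0.05 are red; all 6 collagen hydroxylases lie to the left of 0, from -0.29 to -0.78, and the histone demethylases spread around 0.

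The collagen hydroxylases formed the group with the lowest values. They comprise *P4ha1*, *P4ha2* and *P4ha3*, the alternative catalytic alpha subunits of collagen prolyl 4-hydroxylase, and *Plod1*, *Plod2* and *Plod3*, the lysyl hydroxylases. Of these 6 genes, 2 fell and none rose (33.3% called, against 14.8% of all genes). All 6 log2 fold changes were negative with a median of -0.52, while 7614 of the 14990 genes tested had a negative value. HIF is known to induce several collagen hydroxylases, and the genes had similar signs, so the 250 bases that lead up to their RefSeq start (GRCm38.p6) are shown for the 5 of them with an entry. Bases in capitals are matches to ACGTG or GCGTG, the core letters of a hypoxia response element, where CACGT or CACGC is a match on the other strand. The regions are chr10:59323046-59323295 for *P4ha1*, chr11:54100674-54100923 for *P4ha2*, chr7:100285270-100285519 for *P4ha3* and chr5:136986769-136987018 for *Plod3*, all on the plus strand, and chr4:147936777-147937026 on the minus strand for *Plod1*.
P4ha1: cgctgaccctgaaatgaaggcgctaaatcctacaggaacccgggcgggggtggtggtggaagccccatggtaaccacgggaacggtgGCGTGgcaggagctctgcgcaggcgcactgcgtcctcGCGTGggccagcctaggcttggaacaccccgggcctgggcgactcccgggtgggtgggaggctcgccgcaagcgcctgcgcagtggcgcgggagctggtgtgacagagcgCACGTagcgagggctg
P4ha2: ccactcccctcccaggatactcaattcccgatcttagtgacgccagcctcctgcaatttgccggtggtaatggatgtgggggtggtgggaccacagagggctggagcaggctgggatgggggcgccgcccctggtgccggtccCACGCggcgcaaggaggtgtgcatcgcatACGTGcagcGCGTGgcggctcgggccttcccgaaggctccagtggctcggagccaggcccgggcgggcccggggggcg
P4ha3: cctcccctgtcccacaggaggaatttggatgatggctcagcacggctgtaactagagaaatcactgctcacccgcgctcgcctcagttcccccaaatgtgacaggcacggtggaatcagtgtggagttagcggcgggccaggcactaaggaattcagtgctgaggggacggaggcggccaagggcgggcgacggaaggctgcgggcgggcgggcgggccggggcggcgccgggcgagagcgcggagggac
Plod1: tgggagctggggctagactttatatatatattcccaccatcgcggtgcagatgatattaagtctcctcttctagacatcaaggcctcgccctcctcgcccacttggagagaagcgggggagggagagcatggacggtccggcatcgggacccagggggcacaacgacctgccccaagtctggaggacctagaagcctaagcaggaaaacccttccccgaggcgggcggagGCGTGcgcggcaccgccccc
Plod3: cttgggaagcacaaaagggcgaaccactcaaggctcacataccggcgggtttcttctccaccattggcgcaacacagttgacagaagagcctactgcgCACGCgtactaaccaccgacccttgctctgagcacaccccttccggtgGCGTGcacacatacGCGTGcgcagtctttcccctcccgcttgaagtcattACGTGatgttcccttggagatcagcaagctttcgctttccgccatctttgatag

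These windows held 3 matches in *P4ha1*, 3 in *P4ha2*, 4 in *Plod3*, 1 in *Plod1* and 0 in *P4ha3*. The *P4ha2* window lies inside the gene as annotated for the counts, which begins at base 54100095, since the RefSeq start used is further downstream. At least 1 match was present in 16 of the 31 enzymes whose window was used (51.6%) and in 38.6% of the 32851 promoters of the same length. In these promoters the letters ACGTG were found in 16.6% and GCGTG in 28.2%. The pair of genes that passed the test had the fewest matches of the 5. These counts describe letters and not binding, and their relation to the differences between genotypes was not tested. A match to TGATGNAA, letters bound by ATF4, was found in 1 of the 31 enzymes (*Phyh*) and in 3.45% of all promoters. The E-box letters CACGTG, which contain ACGTG, were found in 1 enzyme (*Alkbh7*) and in 6.02% of promoters.

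*Plod1* encodes lysyl hydroxylase of the helical part of fibrillar collagen, and lies on mouse chromosome 4 (GRCm38, bases 147909753 to 147936767). It had 74.3, 89.8, 69.2 and 61.9 CPM in control 71, 72, 73 and 76, and 56.3, 42.6, 33.3, 34.0 and 49.1 CPM in mutant 74, 75, 77, 78 and 79. The highest mutant library, mutant 74, was below the lowest control library, control 76. The mean ± SD was 73.8 ± 11.8 CPM over 4 control libraries, compared with 43.1 ± 9.84 CPM over 5 mutant libraries, and *Plod1* fell by 0.78 on the log2 scale (SE 0.17, 95% interval -1.14 to -0.41, edgeR adjusted p = 0.0104; 2-sided exact permutation p = 0.00794, the smallest that this design can give).

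*P4ha3*, on chromosome 7 (bases 100285520 to 100319699), encodes a further prolyl 4-hydroxylase alpha subunit. It had 102, 111, 82.7 and 79 CPM in control 71, 72, 73 and 76, and 67.5, 62.4, 62.4, 55.9 and 69.3 CPM in mutant 74, 75, 77, 78 and 79. Again, all mutant libraries were below all control libraries, and the mutant libraries were close to each other (63.5 ± 5.23 CPM, SD, n = 5; control 93.8 ± 15.4 CPM, SD, n = 4). The difference was -0.56 on the log2 scale (SE 0.13, 95% interval -0.83 to -0.29, edgeR adjusted p = 0.0121, exact permutation p = 0.00794). *Plod1* and *P4ha3* were called when each library was left out in turn (9 of 9 fits). Within the 6 libraries without Y transcripts (2 control and 4 mutant) their log2 fold changes were similar, -0.72 and -0.55, but the adjusted p was 0.145 and 0.137, where 0.581% of all genes were called.

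The other 4 collagen hydroxylases did not pass the test. *P4ha1*, the most abundant enzyme of the 38 in CPM, had 295, 286, 217 and 225 CPM in control and 248, 191, 137, 168 and 179 CPM in mutant libraries, in the same order as above. *Plod3*, which also adds sugars to hydroxylysine, had 52.7, 67.4, 63.9 and 47.7 CPM in control and 58.0, 38.7, 35.3, 36.7 and 38.5 CPM in mutant libraries. In both genes mutant 74 lay among the controls while the remaining 4 mutant libraries lay below all controls. The log2 fold changes were -0.47 for *P4ha1* (95% interval -0.82 to -0.12, edgeR adjusted p = 0.0656) and -0.48 for *Plod3* (95% interval -0.84 to -0.13, edgeR adjusted p = 0.0654). *P4ha2* (-0.59, edgeR adjusted p = 0.127) and *Plod2*, the hydroxylase of collagen telopeptides (-0.29, edgeR adjusted p = 0.37), had wider intervals, with upper bounds of -0.05 and 0.16. Without mutant 74, the number of enzymes called lower was 5 instead of 2, with *P4ha1* (-0.60), *P4ha2* (-0.85) and *Plod3* (-0.64) added. More genes at large were called too, 21.2% of all genes without mutant 74, against 14.8% with all libraries. Exons of *Plod3* share 529 bases with *Znhit1* on the opposite strand, which the libraries cannot separate; *Znhit1* had a log2 fold change of -0.26 (edgeR adjusted p = 0.178).

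**Figure D2:**
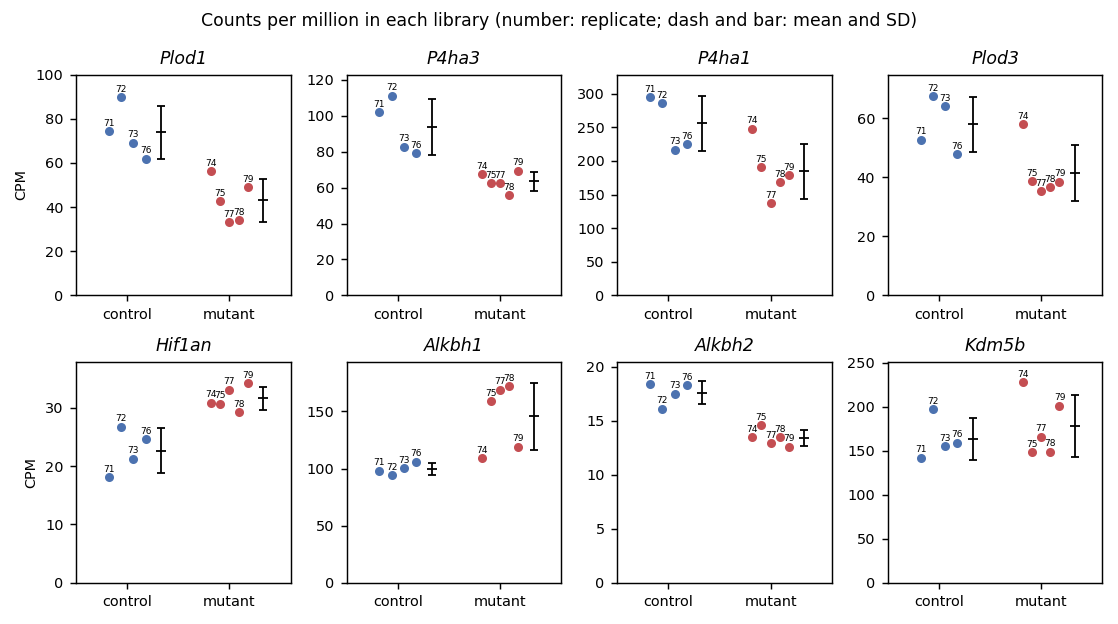
CPM of 8 enzymes in each library (linear axes from 0; points with replicate numbers, 4 control in blue and 5 mutant in red; dash and bar, mean and SD). *Plod1*, *P4ha3* and *Alkbh2* are lower and *Hif1an* and *Alkbh1* higher in every mutant library, mutant 74 lies among the controls for *P4ha1* and *Plod3*, and *Kdm5b*, the histone demethylase with the highest level per kilobase, overlaps between genotypes.

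Summed over the 6 genes, collagen hydroxylase transcripts amounted to 705, 742, 581 and 525 CPM in control 71, 72, 73 and 76, and to 616, 459.5, 354, 396 and 439.6 CPM in mutant 74, 75, 77, 78 and 79. Mutant 74 was above 2 of the control libraries and the other 4 mutant libraries were below all of them. Within a family the enzymes can be compared per kilobase of gene length. *P4ha1* made up 52.9% ± 2.35 of the prolyl 4-hydroxylase subunit transcripts in control libraries, against 54.3% ± 3.14 in mutants (mean ± SD, n = 4 and 5), and *P4ha3* 32.6% ± 0.932 and 32.2% ± 4.55, so the make-up of this family differed by less than its spread. In contrast, *Plod1* made up 27.3%, 28.8%, 27.1% and 29.7% of lysyl hydroxylase transcripts in control and 20.7%, 22.6%, 23.6%, 21% and 26.3% in mutant libraries. These shares did not overlap between genotypes, and how often such shares separate in other gene families was not tested. *Plod2* made up 44.0% ± 3.19 of this family in control and 49.6% ± 3.08 in mutant libraries, with overlap.

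Most of the collagen chain genes that passed the test, which encode the substrates of these enzymes, were higher in mutants. Here and below, paired values in parentheses are the log2 fold change and the edgeR adjusted p. Of 12 chain genes, 6 rose, among them *Col6a3* (3.52, 0.00767), *Col3a1* (2.44, 0.0219) and *Col1a1* (1.89, 0.00334), and 1 fell, *Col18a1* (-1.06, 0.0198), the collagen of basement membranes from which endostatin is cleaved. The chain genes called were thus 58.3%, against 14.8% of all genes. Summed, the 12 chains had 360.5, 388, 401 and 344 CPM in control and 639.6, 764, 372, 382 and 563 CPM in mutant libraries. Mutant 77 and 78 were within the control range and the other 3 mutant libraries above it. *Col1a1* and *Col3a1* are also on the list of stromal markers, whose summed level was highest in mutant 75 (1052 CPM), the library with the highest sum of collagen chains; the part of stromal cells in these sums was not tested. Of 16 partners of collagen processing, 3 fell and none rose, or 18.8% called, close to the 14.8% of all genes, and their median was -0.09. Those that fell were *Loxl3*, a lysyl oxidase (-1.0, edgeR adjusted p = 0.0186), *Bmp1*, the C-proteinase of procollagen (-0.58, 0.0331), and *Fkbp10*, a prolyl isomerase chaperone (-0.51, 0.0177). *P4hb*, the beta subunit shared by all prolyl 4-hydroxylase tetramers, had a log2 fold change of -0.14 (edgeR adjusted p = 0.364), and *Serpinh1*, the collagen chaperone HSP47, of -0.10 (0.872).

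**Figure D3:**
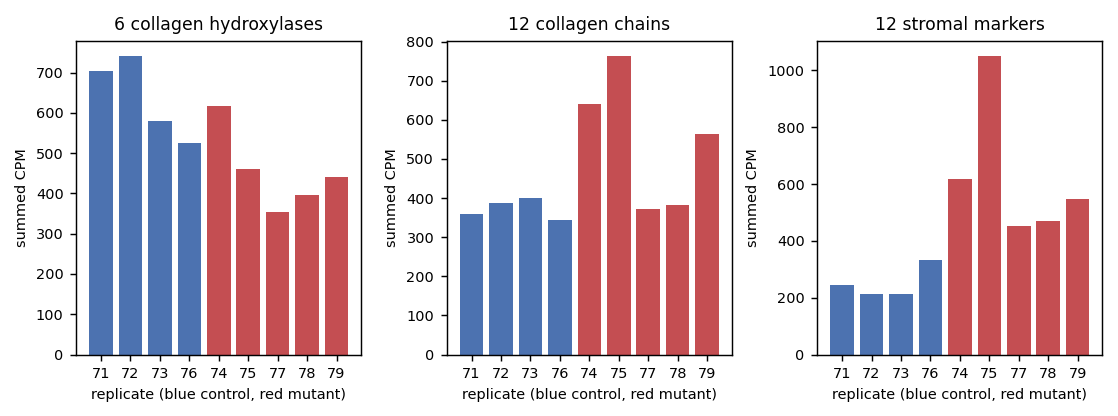
Summed CPM in each library (bars from 0; 4 control in blue, 5 mutant in red) of the 6 collagen hydroxylases, 12 collagen chains and 12 stromal markers. Hydroxylases are lowest in mutant 77 at 354 CPM, chains and stromal markers are highest in mutant 75 at 764 and 1052 CPM, and *Col1a1* and *Col3a1* count in both of the latter sums.

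Of the hydroxylases that act on HIF, *Hif1an* (chromosome 19, bases 44562850 to 44576274) encodes FIH, which hydroxylates an asparagine and blocks the binding of coactivators. It had 18.1, 26.8, 21.3 and 24.6 CPM in control 71, 72, 73 and 76, and 30.9, 30.7, 33.1, 29.3 and 34.3 CPM in mutant 74, 75, 77, 78 and 79. All 5 mutant libraries were above control 72, the highest control. *Hif1an* rose by 0.48 on the log2 scale (SE 0.14, 95% interval 0.17 to 0.79, edgeR adjusted p = 0.0401, exact permutation p = 0.00794), from 22.7 ± 3.83 CPM (SD, n = 4) to 31.6 ± 1.99 CPM (SD, n = 5). *Egln2*, a prolyl hydroxylase of HIF, had a log2 fold change of -0.40 (95% interval -0.91 to 0.11, edgeR adjusted p = 0.27), with 43.7 to 86.5 CPM in control and 32.2 to 69.0 CPM in mutant libraries. Per kilobase, *Hif1an* accounted for 11.6% ± 3.0 of the sum of these 2 transcripts in control libraries, against 19.8% ± 4.75 in mutants (mean ± SD, n = 4 and 5), where control 76 (16.1%) and mutant 74 (13.2%) overlapped. The related *Egln1* (-0.19, edgeR adjusted p = 0.444) and *Egln3* (0.44, 0.399) did not pass the test. Of 16 HIF target genes outside the members, 5 fell and none rose, or 31.2% called, against 14.8% of all genes. The largest changes among these 5 were in *Ankrd37* (-0.91, edgeR adjusted p = 0.014), *Eno1* (-0.70, 0.0043), *Ldha* (-0.66, 0.00606) and *Bnip3* (-0.56, 0.0257), 3 of which are genes of glycolysis or mitophagy. *Vegfa* (0.02, 0.919) and *Slc2a1* (-0.13, 0.598), also HIF targets, did not pass, and neither did *Adm*, which had the largest value of the list (1.05, 0.17). The call of *Hif1an* was close to the threshold: it was made in 3 of 9 fits that left out a library (without control 72, control 76 or mutant 74; adjusted p from 0.0379 to 0.119 over the 9), and its log2 fold change stayed between 0.38 and 0.57 over these fits.

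The remaining protein hydroxylases did not pass the test. *Jmjd6*, which hydroxylates lysines of splicing proteins, had the narrowest interval of the 38 enzymes (0.07, 95% interval -0.15 to 0.28), with 122 to 149.5 CPM in control and 142 to 150.4 CPM in mutant libraries. *Asph*, which hydroxylates EGF-like domains such as those of Notch ligands, had a log2 fold change of -0.30 (95% interval -0.59 to -0.00, edgeR adjusted p = 0.157). For *Ogfod1*, the prolyl hydroxylase of a small ribosomal subunit protein, it was 0.30 (95% interval -0.25 to 0.85), and for *Ogfod2*, whose substrate is not known, -0.21 (95% interval -0.49 to 0.06). *Phyh*, the peroxisomal hydroxylase of phytanoyl-CoA and the only small-molecule enzyme of the set, had a log2 fold change of 0.26 (edgeR adjusted p = 0.387), with 28.1 to 60.3 CPM in mutant libraries around a control range of 31.9 to 40.9 CPM.

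Among the DNA and RNA dioxygenases, *Alkbh1* was the only gene to pass the test. Its product demethylates transfer RNA and has been found in mitochondria, where it acts on mt transfer RNA. *Alkbh1* (chromosome 12, bases 87425840 to 87444017) had 98.2, 94.0, 100.2 and 106 CPM in control 71, 72, 73 and 76, and 109, 159, 169, 172 and 119 CPM in mutant 74, 75, 77, 78 and 79. The control libraries were close together, and the mutant libraries fell into 3 well above and 2 just above them. The log2 fold change was 0.55 (SE 0.15, 95% interval 0.24 to 0.86, edgeR adjusted p = 0.0243, exact permutation p = 0.0317), with means of 99.6 ± 4.95 CPM (SD, n = 4) and 146 ± 29.3 CPM (SD, n = 5). The call was kept in 3 of 9 fits that left out a library (without control 76, mutant 74 or mutant 79; adjusted p from 0.00493 to 0.0672). *Alkbh1* shares 122 exonic bases with *Slirp* on the opposite strand, which had a log2 fold change of 0.17 (edgeR adjusted p = 0.568) and a median of 462 reads against 2567 for *Alkbh1*.

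*Alkbh2*, a nuclear enzyme that repairs alkylated bases in DNA, did not overlap between genotypes but did not pass the test. Lack of overlap was found for 15.2% of all genes. It had 18.4, 16.1, 17.5 and 18.3 CPM in control and 13.5, 14.6, 12.9, 13.5 and 12.6 CPM in mutant libraries, in the order given above. The highest mutant value was below the lowest control value, and both genotypes varied little (17.6 ± 1.05 CPM, SD, n = 4, and 13.4 ± 0.763 CPM, SD, n = 5). The log2 fold change was -0.39 (SE 0.14, 95% interval -0.69 to -0.09, edgeR adjusted p = 0.0755). *Alkbh2* passed in 3 of 20 alternatives (DESeq2, limma-voom and 1 surrogate variable) and in 0 of 9 fits that left out a library (edgeR adjusted p from 0.0851 to 0.163). Those 3 alternatives called 21.3%, 32.5% and 20.8% of all genes. *Alkbh2* shares 329 exonic bases, of a gene length of 1073 bases, with *Usp30* on the opposite strand (0.12, edgeR adjusted p = 0.677).

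The 3 TET enzymes did not pass the test. *Tet1* had a log2 fold change of -0.37 (95% interval -0.80 to 0.06), *Tet2* of -0.07 (-0.51 to 0.37) and *Tet3* of 0.25 (-0.18 to 0.68). In the alternatives, *Tet1* was called by limma-voom (-0.57, adjusted p = 0.0339) and with the length trend removed (-0.58, limma adjusted p = 0.047), and *Tet3* by edgeR with 1 surrogate variable (0.44, adjusted p = 0.0123), while *Tet1* was at -0.22 without mutant 78. The settings that made these calls passed 32.5%, 18.4% and 20.8% of all genes, in this order. Per kilobase, *Tet3* was the most abundant of them and made up 44.9%, 48.5%, 41.4% and 45.6% of TET transcripts in control 71, 72, 73 and 76, and 52.0%, 50.2%, 52.0%, 52.8% and 55.1% in mutant 74, 75, 77, 78 and 79. This share did not overlap between genotypes, although the sum of the 3 genes did (14.0 ± 2.69 CPM per kilobase, SD, n = 4, and 14.3 ± 3.59, SD, n = 5). Most of the shares within families examined here overlapped, and how often such shares separate among other genes was not tested. *Tet1* made up 18.3% to 26.0% in control and 11.1% to 19.0% in mutant libraries. Of the erasers of m6A in messenger RNA, *Fto* had a log2 fold change of -0.01 (95% interval -0.29 to 0.28) and *Alkbh5* of -0.28 (-0.55 to -0.00, edgeR adjusted p = 0.157), and the share of *Alkbh5* in their sum was 26.8% ± 2.47 (SD) in control and 23.3% ± 1.82 (SD) in mutant libraries, with overlap. *Tyw5*, a hydroxylase of a modified base of phenylalanine transfer RNA, had 0.41 (95% interval -0.01 to 0.83), while *Alkbh3*, *Alkbh7* and *Alkbh8*, with roles in repair, in mitochondria and in transfer RNA, had -0.11, 0.13 and 0.12. *Tyw5* shares 718 exonic bases, of a gene length of 1847 bases, with *Maip1* on the opposite strand, for which no counts were found under that symbol.

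None of the 14 histone demethylases passed the test (0 of 14 by edgeR, against 14.8% of all genes). An unadjusted p under 0.05 was found for 2 of 14, or 14.3%, against 31.4% of all genes, and none of the 14 was without overlap, against 15.2% of all genes. DESeq2 called none of them either, limma-voom called *Kdm3a* and *Kdm8*, and edgeR with 1 surrogate variable called *Kdm5b*. These settings called 21.3%, 32.5% and 20.8% of all genes, in this order. Log2 fold changes ranged from -0.59 to 0.43. The extremes were *Kdm8*, a JmjC enzyme with 10.2 to 15 CPM in control and 5.22 to 13.1 CPM in mutant libraries (-0.59, 95% interval -1.17 to -0.02), and *Phf2*, an H3K9 demethylase with 7.75 to 9.07 CPM in control and 7.84 to 13.7 CPM in mutant libraries (0.43, 95% interval 0.01 to 0.85). Both are among the 3 histone demethylases with the fewest reads, and *Kdm8* was called when mutant 79 was left out (-0.84, edgeR adjusted p = 0.04). *Kdm3a*, an H3K9 demethylase and known HIF target, followed with -0.30 (95% interval -0.63 to 0.02).

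By substrate, the H3K4 demethylases *Kdm5a* and *Kdm5b* had -0.10 (95% interval -0.38 to 0.18) and 0.13 (-0.19 to 0.45). The H3K36 demethylases *Kdm2a* and *Kdm2b* had 0.09 (-0.17 to 0.35) and -0.03 (-0.33 to 0.26). *Kdm2b* shares 627 exonic bases with *Rnf34* on the opposite strand, which had a median of 2138 reads against 859 for *Kdm2b*. The part of *Rnf34* reads in the *Kdm2b* value was not tested. *Kdm4a*, *Kdm4b* and *Kdm4c*, which act on H3K9 and H3K36, had -0.09, -0.05 and 0.23, and *Kdm3b*, which acts on H3K9, had 0.05. Of the enzymes with H3K27 among their substrates, *Kdm6b* had -0.09 (95% interval -0.59 to 0.41) and *Kdm7a* -0.05 (-0.35 to 0.24), and *Phf8*, which acts on H3K9 and H4K20, had -0.02 (-0.40 to 0.35). All of these intervals include 0. Per kilobase, *Kdm5b* was the most abundant histone demethylase in control progenitors (18.7 ± 2.69 CPM per kilobase, SD, n = 4), closely followed by *Kdm3a* (17.6 ± 3.33), from which it did not differ beyond the spread, and *Phf2* was the least abundant (1.62 ± 0.112).

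The median level of the histone demethylases differed between libraries of the same genotype. Centred on its mean over libraries, the median of the 14 genes was -0.16, 0.17, 0.07 and -0.05 (log2) in control 71, 72, 73 and 76, and 0.17, -0.31, -0.15, -0.14 and 0.25 in mutant 74, 75, 77, 78 and 79. The highest library was mutant 74 for 5 genes, mutant 79 for 3 and control 72 for 3, and the lowest was mutant 75 for 6. Mutant libraries thus took both ends of the range of medians, although single genes departed from it, such as *Phf2*, which was lowest in control 72, and *Kdm4c*, which was highest in mutant 77. Histone demethylase genes are long, with a median gene length of 5809 bases, compared with 3857 for DNA and RNA dioxygenases, 3853 for protein hydroxylases and 2968 for all genes tested. The median of the 2756 genes of at least 5 kb, measured in the same way, was 0.20 in mutant 79, 0.15 in mutant 74, 0.05 in control 72 and -0.17 in control 71, so it shared its highest libraries with the demethylases but not its lowest. With the trend on gene length removed from each library, still none of the 14 was called.

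**Figure D4:**
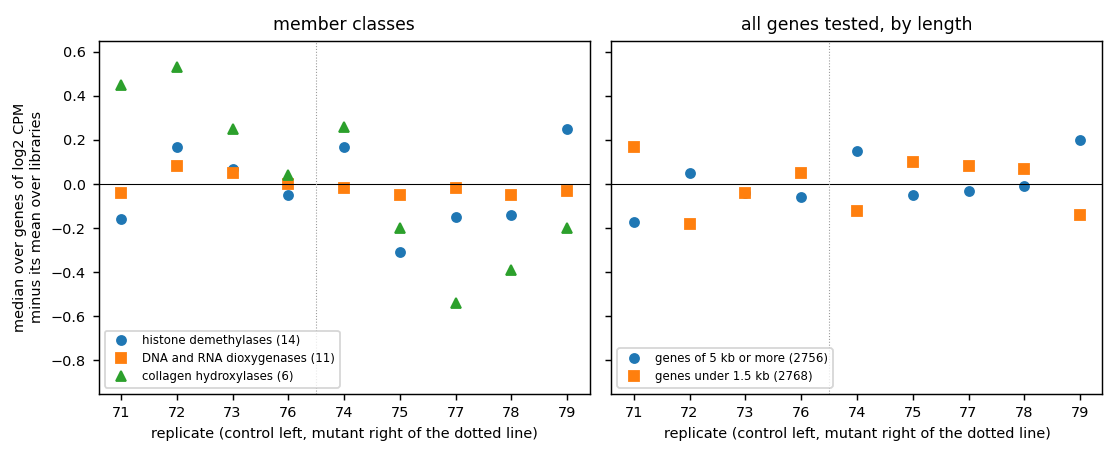
Median over genes of log2 CPM, centred for each gene on its mean over the 9 libraries, for 3 classes of enzymes (left) and for all tested genes of 5 kb or more and under 1.5 kb (right). Collagen hydroxylases are at 0.04 or above in all controls and, except in mutant 74 (0.26), at -0.20 or below in mutants; histone demethylases reach 0.25 in mutant 79 and -0.31 in mutant 75, and long genes 0.20 in mutant 79.

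Of 20 other 2-oxoglutarate dioxygenases that could be tested, outside the 38, 1 rose and 4 fell (25.0% called, against 14.8% of all genes). *Lepre1* (also P3h1; -0.56, edgeR adjusted p = 0.0376) and *Leprel2* (also P3h3; -0.91, 0.0254) encode prolyl 3-hydroxylases of collagen, while *Leprel1* (also P3h2), the third of these, had few reads and did not pass the test (1.66, 0.087). *Asphd2*, an aspartyl hydroxylase homologue (-1.04, 0.00905), and *Jmjd8* (-0.43, 0.0484) also fell, and *Jmjd1c*, a JmjC protein related to *Kdm3a*, rose (0.47, 0.0225). The X-linked *Kdm5c* and *Kdm6a*, whose partners on the Y chromosome were at or near 0 outside the 3 libraries with Y transcripts, had log2 fold changes of 0.35 (edgeR adjusted p = 0.119) and 0.11 (0.69).

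Several enzymes that make or use 2-oxoglutarate passed the test. Of 25 genes that convert or carry 2-oxoglutarate, succinate or fumarate, 4 rose, among them *Psat1*, the aminotransferase of serine synthesis, which yields 2-oxoglutarate (1.69, edgeR adjusted p = 0.000364), and *Gpt2* (0.76, 0.0155) and *Got1* (0.52, 0.00969), the mt alanine and the cytosolic aspartate aminotransferase. *Idh1*, which makes 2-oxoglutarate from isocitrate in the cytosol, fell by 0.51 on the log2 scale (0.0204), and *Slc25a11*, the mt carrier of 2-oxoglutarate and malate, by 0.39 (0.0276). In total, 6 of these 25 genes were called, 4 higher and 2 lower, against 14.8% of all genes. The median log2 fold change of the 25 genes was 0.02. For the opposite reaction to demethylation, 4 of 31 methyl writers rose and 1 fell. *Rbm15*, a subunit of the m6A writer complex (0.77, 0.0223), *Dot1l* (0.58, 0.0216), *Whsc1l1*, also Nsd3 (0.51, 0.0197), and *Ezh1* (0.50, 0.0214), which methylate H3K79, H3K36 and H3K27, were higher, and *Uhrf1*, the partner of the maintenance DNA methyltransferase, was lower (-0.77, 0.0498). The 5 calls among 31 writers (16.1%) are close to the 14.8% of all genes.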

How the data were processed

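RNA was amplified as cDNA from sorted cells with poly(A) selection and without strand information, per the labels; the submitters' processing notes name STAR, DESeq2 and the mm10 build, without versions. The deposited table holds read counts per gene and library, which were used here, and FPKM values that the authors computed from them. Its normalized signal per genotype and its log2 fold change, p-value and adjusted p-value columns are the authors' own comparison and were not used. Genes were matched by symbol, since part of the deposited identifiers run on as a series of numbers.

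The test was run on the counts with edgeR 4.0.16 (R 4.3.3): filterByExpr on the genotype (14990 of 26858 genes), TMM normalization, robust quasi-likelihood test, Benjamini-Hochberg adjustment over all genes tested, threshold 0.05. Standard errors were derived from the F statistic, and the 95% interval uses the t distribution of the fit. For single genes, a 2-sided exact permutation test of mean CPM was made over the libraries. It is given only for members that passed the edgeR test and uses the same values, so it is no separate support. The scripts were tested on simulated data. CPM divided by gene length in kilobases gives levels per length. Centred values are log2(CPM + 0.5) minus the gene's mean. Alternatives used DESeq2 1.42.0, limma 3.58.1 and sva 3.50.0. Promoters came from RefSeq (GRCm38.p6), with windows used for 31 of 38 members. Members on chromosome 18 (*Kdm3b*) were left out of the promoter search, while the promoters they were compared with were not filtered by chromosome. Exon overlaps came from GENCODE (GRCm38), where 68.8% of 24867 shared symbols had identical coordinates.

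With 21040536 to 23986458 counts per library, counting error was small for abundant members. It was of similar size to the spread between libraries for some members, such as *Alkbh2* and, in control libraries, *Phf2*. The spread of *Phf2* was larger in mutant libraries (SD 2.33 CPM, against 0.59 CPM in control libraries). The labels give no litter, sex, batch or pooling, so p-values measure the spread between these libraries, which may be in part technical. Members, lists and tests were chosen with earlier results of these data known. All members are accounted for; values in every library are given for members with an adjusted p under 0.05 or without overlap, and, chosen after their values were seen, for *P4ha1* and *Plod3*. Genes of other lists are named where they passed the test, at most 4 of a list by size; *P4hb*, *Serpinh1*, *Vegfa*, *Slc2a1*, *Egln1*, *Egln3*, *Leprel1*, *Adm*, *Kdm5c*, *Kdm6a* and the overlapping genes were named in addition, after their values were seen.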

Additional observations from a re-analysis of the deposited data

Results flagged for a closer look

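In 4 of 78 groups of libraries, 1 library stood apart from the others by Dixon's criterion, where chance flags about 1 in 20 groups, or 3.9. *Plod3* was at 58.0 CPM in mutant 74, with the next mutant library at 38.7 CPM; this library lies among the controls, and the adjusted p of *Plod3* was 0.0654 with it and 0.00673 without it. *Alkbh5* was at 36.6 CPM in mutant 75, with the next at 44.7 CPM. *Kdm6b* was at 37.9 CPM in control 71, with the next control library at 26.9 CPM, and its log2 fold change was -0.09 with control 71 and 0.06 without it. *Kdm3b* was at 38.4 CPM in control 73, with the next at 33.5 CPM.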

How the results depend on the processing

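No paired analysis was possible because control and mutant libraries share no replicate number. Over 20 alternatives, *Plod1* and *P4ha3* were called in 19 each, *Alkbh1* in 13 and *Hif1an* in 12, and none of these 4 changed sign; *Hif1an* was also lost when genes with at least 1 count in any library were kept (adjusted p = 0.0703). The number of genes called, 2225, became 4868 with limma-voom and 4709 with unadjusted p, and ranged from 1046 (without control 73) to 3136 (without mutant 74) when each library was left out; it was 1354 without control 71, 1272 without control 72 and 1336 without mutant 78. Members called higher, 2, became 1 with genes of at least 1 count in any library and 4 with 1 surrogate variable, and ranged from 0 (without control 71, control 73, mutant 77 or mutant 78) to 2 with libraries left out. Members called lower, 2, became 5 with DESeq2, 11 with limma-voom and 9 with unadjusted p, and ranged from 2 to 5 (without mutant 74). The share of all genes called was 14.8% in the main fit, 21.3% with DESeq2, 32.5% with limma-voom and 31.4% with unadjusted p. It was 20.8% with 1 surrogate variable, 18.4% with the length trend removed and 21.2% without mutant 74. Chosen after the data were seen, removal of the length trend gave 5 members lower, and the 6 libraries without Y transcripts gave 90 genes, 0 members higher and 0 lower; in those libraries *Alkbh1* was at 0.58 (adjusted p = 0.191) and *Hif1an* at 0.53 (0.215). Fewer libraries enter the left-out and no-Y fits. The cause of these shifts was not tested for any setting. Reversed signs concerned members near 0. With the length trend removed these were *Kdm2a* (-0.04), *Kdm3b* (-0.08) and *Kdm5b* (-0.01). With 1 surrogate variable they were *Kdm2b* (0.02), *Kdm4a* (0.15), *Kdm4b* (0.09), *Kdm5a* (0.00), *Kdm7a* (0.03), *Phf8* (0.09), *Tet2* (0.14) and *Fto* (0.06). With Y-linked expression as a term they were *Kdm2b* (0.04), *Kdm4a* (0.12), *Kdm4b* (0.04), *Phf8* (0.06), *Tet2* (0.11) and *Fto* (0.07). In libraries without Y transcripts they were *Kdm2b* (0.01), *Kdm4a* (0.19), *Tet2* (0.17), *Alkbh7* (-0.11), *Fto* (0.03) and *Jmjd6* (-0.02). *Kdm3b* was -0.07 with limma-voom, and *Fto* 0.01 with DESeq2 and with RLE normalization. With libraries left out, values ranged from -0.10 to 0.05 for *Kdm2b*, -0.01 to 0.11 for *Kdm3b*, -0.23 to 0.08 for *Kdm4a*, -0.15 to 0.05 for *Kdm4b*, -0.27 to 0.06 for *Kdm6b*, -0.10 to 0.03 for *Kdm7a*, -0.15 to 0.05 for *Phf8*, -0.22 to 0.04 for *Tet2* and -0.10 to 0.05 for *Fto*.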
